A study of Homo sapiens with 8 samples.

Results

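In SV-HUC1 cells with and without glucose oxidase, 10 genes known as targets of the hypoxia-inducible factors were followed: CA9, CA12, ADM, P4HA1, EGLN3, NDRG1, ANKRD37, BNIP3, KDM3A and VEGFA. They are 10 of the 58735 genes of the deposited count table, found by gene name, and 9 of them were among the 17413 genes that passed the filter on low counts. SV-HUC1 is an established line of human urothelial cells immortalised with SV40. Controls were 4 untreated cultures and the other group was 4 cultures kept with glucose oxidase at 20 mU per ml for 24 h, each group numbered 1 to 4. Both groups grew in the same serum-containing medium, and the labels give the experiments as independent without saying that equal numbers mark one experiment. Glucose oxidase turns glucose and oxygen into gluconolactone and hydrogen peroxide. No group received inactive enzyme or added peroxide, so effects of peroxide cannot be told apart from those of used-up glucose and oxygen.

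The genes were chosen from their change between the treated and control libraries. Their levels and changes are therefore a description with no test, and tests are given for genes outside the 10. The lists of those other genes were also chosen with earlier results of these data known. All 10 are grouped by their known induction in hypoxia, not by a shared direction here: CA12 was close to the limit of detection, KDM3A differed little between the groups, and VEGFA was on average higher after treatment.

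Hypoxia-inducible factors (HIFs) pair an oxygen-controlled alpha subunit, such as the products of HIF1A and EPAS1, with the stable partner ARNT. When oxygen is present, the prolyl hydroxylases of the EGLN family mark the alpha subunit, the VHL ubiquitin ligase binds the mark and the subunit is degraded. When oxygen is scarce the subunit persists, binds a short DNA core in target promoters and enhancers, and raises genes of pH control, collagen hydroxylation, mitophagy, glycolysis and blood vessel growth. CA9 is widely used as a tissue marker of hypoxia in bladder tumours.

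The DNA core bound by HIF reads ACGTG or GCGTG, and promoters are shown here because the 10 genes were grouped as HIF targets. RefSeq promoters (GRCh38.p14) were at hand for 8 of the 10 genes, not for NDRG1 and VEGFA, and the 250 bases before each gene's start were searched on both strands. CA9, EGLN3 and P4HA1 are shown for their large differences between the groups, and ANKRD37 and BNIP3 for holding the most matches. Sequences run 5′ to 3′ on the gene's strand, with capitals marking every match to ACGTG or GCGTG or to their reverse complements CACGT and CACGC. CA9 lies at chr9:35673678-35673927 on the plus strand, P4HA1 at chr10:73096867-73097116 on the minus strand and ANKRD37 at chr4:185396591-185396840 on the plus strand. BNIP3 lies at chr10:131981924-131982173 and EGLN3 at chr14:33951075-33951324, both on the minus strand. These windows are set by the RefSeq start, which differs from the start of the deposited gene model: the windows of CA9, P4HA1 and BNIP3 span the deposited start, and those of ANKRD37 and EGLN3 lie inside the deposited gene.
CA9: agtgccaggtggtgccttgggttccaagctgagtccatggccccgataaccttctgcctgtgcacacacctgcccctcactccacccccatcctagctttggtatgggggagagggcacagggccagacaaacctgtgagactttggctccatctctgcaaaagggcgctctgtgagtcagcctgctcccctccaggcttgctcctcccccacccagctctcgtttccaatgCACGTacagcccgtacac
P4HA1: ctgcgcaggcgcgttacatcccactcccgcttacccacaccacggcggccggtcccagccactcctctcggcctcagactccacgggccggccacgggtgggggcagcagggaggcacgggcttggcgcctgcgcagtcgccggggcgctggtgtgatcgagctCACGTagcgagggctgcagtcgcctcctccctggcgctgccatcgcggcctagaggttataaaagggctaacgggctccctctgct
ANKRD37: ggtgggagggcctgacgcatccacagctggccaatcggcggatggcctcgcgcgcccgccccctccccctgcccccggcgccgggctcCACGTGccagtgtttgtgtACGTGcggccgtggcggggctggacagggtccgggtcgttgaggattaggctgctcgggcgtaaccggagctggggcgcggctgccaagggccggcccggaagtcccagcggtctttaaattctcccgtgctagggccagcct
BNIP3: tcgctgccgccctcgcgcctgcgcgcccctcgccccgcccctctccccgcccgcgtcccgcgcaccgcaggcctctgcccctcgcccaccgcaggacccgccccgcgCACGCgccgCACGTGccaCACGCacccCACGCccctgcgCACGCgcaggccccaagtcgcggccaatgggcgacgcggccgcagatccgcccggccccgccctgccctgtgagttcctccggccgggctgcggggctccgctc
EGLN3: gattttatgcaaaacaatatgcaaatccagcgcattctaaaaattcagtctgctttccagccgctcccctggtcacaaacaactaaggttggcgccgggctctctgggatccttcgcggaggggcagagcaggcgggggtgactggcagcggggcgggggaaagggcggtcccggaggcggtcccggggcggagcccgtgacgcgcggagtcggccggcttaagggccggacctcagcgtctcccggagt

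The CA9 window held 1 ACGTG on the reverse strand, at -18 to -14 from the start. P4HA1 held 1 ACGTG, also on the reverse strand, at -86 to -82. ANKRD37 held 3 ACGTG matches and BNIP3 held 2, and in each of these windows a pair overlaps within the palindrome CACGTG, which is also an E-box and is counted on both strands. BNIP3 also held 4 GCGTG matches. CA12, ADM and each of the 2 listed KDM3A starts held 1 GCGTG, and EGLN3 held neither core in this window. Cores this short are common: 43.2% of all 35116 listed promoters and 49.3% of those of protein-coding genes hold at least 1 in the same window, 18.5% and 20.2% for ACGTG alone and 32.2% and 38.3% for GCGTG alone. The core of AP-1, TGACTCA (reverse complement TGAGTCA), occurred in the CA9 window, at -77 to -71 from the start, and at 1 of the KDM3A starts, against 4.2% of all listed promoters.

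Library totals ran from 21437267 to 27183692 counts. Values below are CPM, counts scaled to a common library total, after TMM, a method that corrects for library composition. Its factors ran from 0.768 in control 3 to 1.17 in control 2. In both groups replicates 1 and 2 stood apart from replicates 3 and 4 over the whole transcriptome. Across genes, the deviations of a control and a treated library from their group means correlated at 0.532, 0.678, 0.590 and 0.503 for numbers 1 to 4. Between a control and a treated library from opposite sides of the division the correlation was -0.678 to -0.402. The labels do not name this division, which was seen in the expression data, so fits with and without a block for the replicate number are both given. The urothelial and epithelial markers KRT7, KRT8, KRT18, KRT19 and EPCAM were at 203.1 CPM or more in every library. Of the uroplakins, proteins of the differentiated surface layer, UPK1B was at 54.1 to 186.8 CPM and UPK2 at 4.67 to 11.6 CPM, while UPK1A and UPK3A were at 0.173 CPM or less. Of 6 endothelial markers ENG was at 28.3 to 59.2 CPM and CDH5 at 1.55 to 5.17 CPM, and the other 4, with PECAM1 and VWF, had group means below 1 CPM. Of 6 leukocyte markers CD14 was at 2.12 to 5.26 CPM and the other 5, with PTPRC, had group means below 1 CPM. Of 7 fibroblast markers COL1A1 alone had group means above that level, and the list summed to 15.8 to 27.0 CPM. The summed level of the 15 epithelial markers ran from 6066 to 9313 CPM across controls and from 4659 to 5440 CPM across treated libraries, and its part in the results below was not tested. The list was mixed. Of 13 tested in edgeR with the block, KRT5, KRT8, KRT13 and KRT19 were lower and GATA3 was higher at an adjusted p below 0.05. Over all genes tested 6.97% were lower and 7.51% higher. The other 8 markers did not pass, and TP63 was at 0.048 to 1.47 CPM. A lower value in bulk RNA cannot tell fewer cells of a kind from less RNA per cell.

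CA9, ADM and EGLN3 were lower in every treated library than in any control. For CA9 and EGLN3 the counting intervals of the highest treated library and the lowest control overlap, as given below. P4HA1, EGLN3 and NDRG1 had their larger differences at replicates 3 and 4, while ANKRD37 and BNIP3 were about as much lower at replicate 2 as at replicate 4 and lowest at replicate 3. VEGFA had the mirror image: its 2 lowest values were controls 3 and 4. Controls 3 and 4 were both at least 2-fold above controls 1 and 2 for P4HA1, EGLN3, NDRG1, ANKRD37 and BNIP3, which holds for 4.86% of all genes tested. They were both at least 2-fold below them for VEGFA, which holds for 6.28%.

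**Figure D1:**
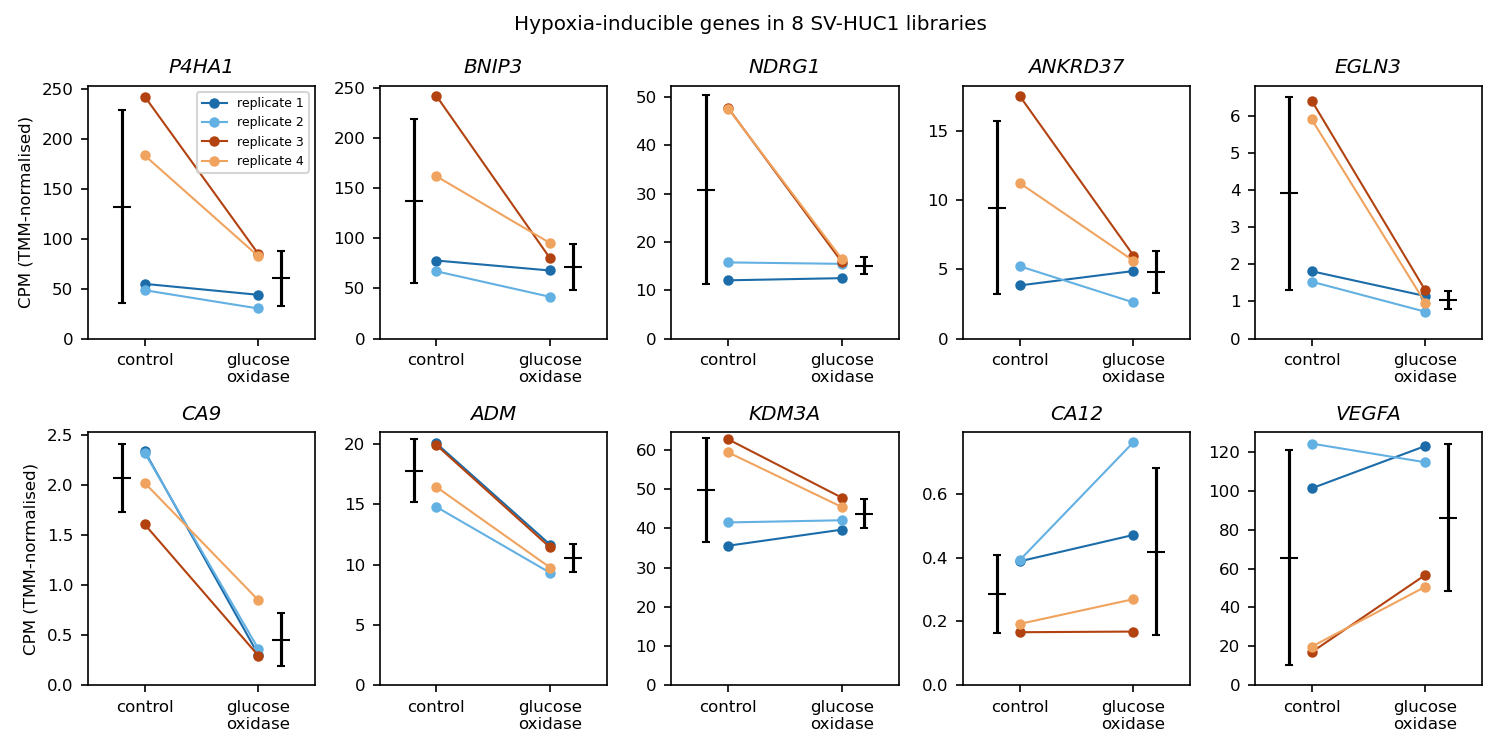
CPM (TMM-normalised, linear axes from 0) of the 10 genes in each of 8 libraries; lines join libraries of the same replicate number, and black bars give the group mean ± SD (n = 4). P4HA1, BNIP3, NDRG1, ANKRD37 and EGLN3 are highest in controls 3 and 4, VEGFA is lowest there, and CA9, EGLN3 and ADM have all treated libraries below all controls.

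The carbonic anhydrases CA9 and CA12 are membrane enzymes with their active site outside the cell, where they hydrate CO2. Gene coordinates are those of the deposited table, build GRCh38.p13. CA9 (ENSG00000107159; chromosome 9, 35673856 to 35681159, plus strand) had 54, 59, 29 and 42 counts in controls 1 to 4 and 9, 9, 7 and 22 counts in treated libraries 1 to 4. In CPM these were 2.33, 2.32, 1.60 and 2.02 in controls and 0.303, 0.362, 0.294 and 0.848 in treated libraries. Every treated library lay below every control, and treated 4 lay above the other 3 treated libraries. In the fits the log2 change was -2.19 (SE 0.40) without and -2.26 (SE 0.38) with the replicate block, from 2.07 ± 0.34 to 0.452 ± 0.266 CPM (SD, n = 4).

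At these counts sampling alone leaves wide limits: the exact 95% Poisson interval, for counting error only, was 13.8 to 33.3 counts for treated 4 and 2.81 to 14.4 for treated 3. In CPM the interval of treated 4, 0.532 to 1.28, overlaps that of control 3, 1.07 to 2.30. Exons of ARHGEF39 on the opposite strand cover 38.5% of the exon bases of CA9. Where the counting did not use strand, reads there cannot be told apart, and whether it did is not stated in the labels. ARHGEF39 had a mean of 24.7 ± 8.88 CPM without and 19.6 ± 3.98 CPM with treatment (log2 change -0.28, SE 0.15, edgeR adjusted p = 0.221 with the block), and its part in the CA9 values was not tested.

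CA12 (ENSG00000074410; chromosome 15, 63321378 to 63382161, minus strand) was the only one of the 10 that did not pass the filter on low counts. It had 9, 10, 3 and 4 counts in controls and 14, 19, 4 and 7 in treated libraries, or 0.285 ± 0.123 and 0.418 ± 0.262 CPM (SD, n = 4). Each treated library was above its control of the same number, by log2 differences of 0.28, 0.96, 0.02 and 0.49, the opposite side from CA9. At replicate 2, where the difference was largest, the exact 95% Poisson intervals of 4.80 to 18.4 counts in the control and 11.4 to 29.7 in the treated library overlap. The ranges of the groups overlapped too.

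ADM (ENSG00000148926; chromosome 11, 10304680 to 10307397, plus strand) encodes adrenomedullin, a secreted vasodilator peptide. Its CPM was 20.1, 14.8, 19.9 and 16.4 across controls 1 to 4 and 11.7, 9.32, 11.4 and 9.76 across treated libraries. ADM was the most even of the 10: the log2 differences by replicate number were -0.78, -0.67, -0.80 and -0.75, with an SD of 0.06, and the groups did not overlap. The fitted log2 change was -0.75 both without the block (SE 0.18) and with it (SE 0.15).

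EGLN3 and KDM3A encode dioxygenases that use oxygen and iron. EGLN3 (ENSG00000129521; chromosome 14, 33924231 to 34462774, minus strand), a prolyl hydroxylase that acts on HIF alpha and is itself raised by HIF, was at 1.82, 1.53, 6.42 and 5.91 CPM in controls. In treated libraries it was at 1.15, 0.723, 1.30 and 0.964 CPM, all below all controls. The exact 95% Poisson intervals of treated 3, 0.885 to 1.85 CPM, and control 2, 1.09 to 2.10 CPM, overlap. The log2 differences by replicate number were -0.66, -1.08, -2.30 and -2.62, so the lower values held at all 4 numbers and were larger where the control was high. In the fits the log2 change was -1.91 (SE 0.49) without and -1.71 (SE 0.31) with the block.

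KDM3A (ENSG00000115548; chromosome 2, 86440647 to 86492716, plus strand), a histone demethylase that removes methyl groups from lysine 9 of histone H3, was at 35.6, 41.5, 62.7 and 59.4 CPM in controls. In treated libraries it was at 39.7, 42.1, 47.9 and 45.5 CPM. All treated values lay inside the range of the controls. The log2 differences were 0.16 and 0.02 at replicates 1 and 2 and both -0.39 at replicates 3 and 4, and the fitted change of -0.15 (SE 0.14, block) was about the size of its error.

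P4HA1 (ENSG00000122884; chromosome 10, 73007217 to 73096974, minus strand) encodes the catalytic subunit of the enzyme that hydroxylates proline in collagen. Its CPM was 54.9, 48.5, 242.8 and 183.7 across controls and 43.9, 30.1, 85.0 and 82.6 across treated libraries. Treated 3 and 4 lay below their own controls but above controls 1 and 2, so the groups overlapped although the treated library was lower at all 4 numbers (log2 differences -0.32, -0.69, -1.52 and -1.15). The fitted log2 change was -1.13 (SE 0.54) without and -0.92 (SE 0.17) with the block.

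BNIP3 (ENSG00000176171; chromosome 10, 131966455 to 131982013, minus strand), a receptor of the outer mitochondrial membrane for mitophagy, was at 77.7, 67.0, 241.7 and 161.6 CPM in controls. In treated libraries it was at 67.8, 41.6, 80.0 and 95.1 CPM. It was lower at all 4 numbers, by log2 differences of -0.20, -0.69, -1.60 and -0.76, with overlap between the groups. In the fits the log2 change was -0.95 (SE 0.41) without and -0.81 (SE 0.17) with the block.

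NDRG1 (ENSG00000104419; chromosome 8, 133237171 to 133302022, minus strand), a cytoplasmic stress-response protein, differed between the groups at replicates 3 and 4. Controls 1 and 2 were at 12.1 and 15.8 CPM, and controls 3 and 4 at 47.7 and 47.6 CPM, against 12.5, 15.5, 15.9 and 16.5 CPM in treated libraries 1 to 4. The treated libraries thus spanned 1.32-fold and the controls 3.96-fold. At replicates 1 and 2 the log2 differences were 0.05 and -0.03, and at replicates 3 and 4 they were -1.59 and -1.53. The fitted log2 change of -0.79 (SE 0.21) with the block and -1.03 (SE 0.42) without averages over these. With replicate 3 left out the blocked value was -0.51.

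ANKRD37 (ENSG00000186352; chromosome 4, 185396021 to 185400628, plus strand), a small ankyrin repeat protein, was at 3.85, 5.23, 17.5 and 11.2 CPM in controls and at 4.89, 2.61, 6.01 and 5.63 CPM in treated libraries. It was higher in the treated library at replicate 1 (log2 difference 0.35) and lower at the others (-1.001, -1.55 and -0.998), with overlap between the groups. In the fits the log2 change was -0.98 (SE 0.46) without and -0.82 (SE 0.23) with the block. Exons of UFSP2 on the opposite strand cover 35.2% of its exon bases. UFSP2 had 20.7, 19.8, 56.6 and 47.8 CPM across controls 1 to 4, and 23.6 to 37.3 CPM across treated libraries (log2 change -0.14, SE 0.15, edgeR adjusted p = 0.603 with the block). UFSP2 was thus also high in controls 3 and 4, and whether its reads entered the ANKRD37 values was not tested.

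VEGFA (ENSG00000112715; chromosome 6, 43770184 to 43786487, plus strand) encodes the main growth factor of blood vessel endothelium. It had 2344, 3163, 306 and 411 counts in controls, or 101.3, 124.4, 16.9 and 19.8 CPM, and 123.1, 114.7, 56.7 and 50.6 CPM in treated libraries. Its controls spanned 7.35-fold, the widest of the 10, and its treated libraries 2.43-fold. At replicates 1 and 2 the log2 differences were 0.28 and -0.12. At replicates 3 and 4 they were 1.74 and 1.36, and these treated libraries were still below controls 1 and 2. The fitted log2 change was 0.39 (SE 0.61) without and 0.79 (SE 0.21) with the block, and with replicate 3 left out the blocked value was 0.49. Most of the VEGFA difference thus lay at replicates 3 and 4.

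**Figure D2:**
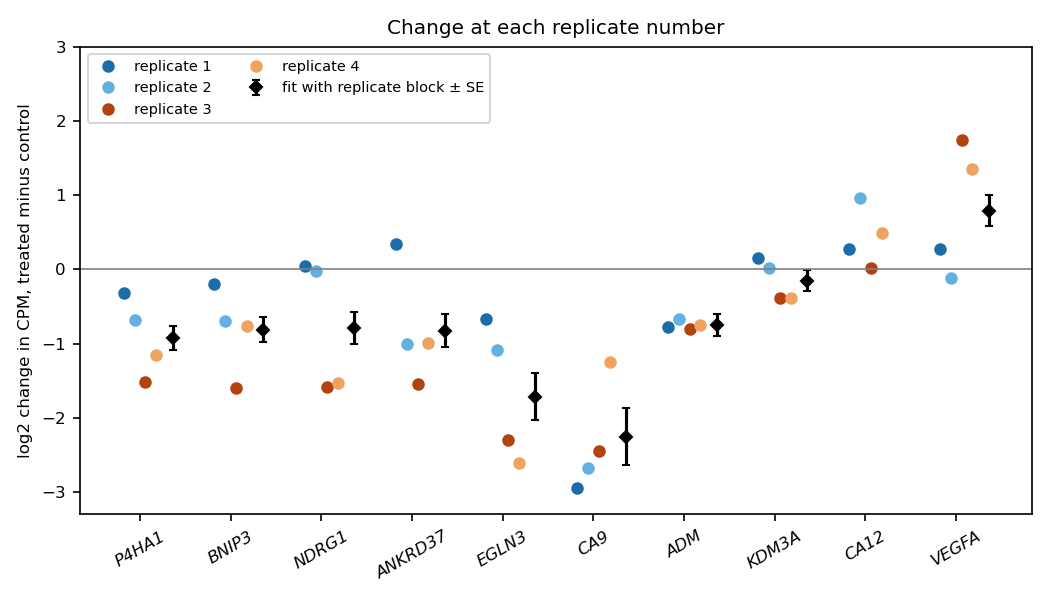
Log2 difference in CPM, treated minus control, at each replicate number (coloured points) for the 10 genes, with the edgeR value from the fit with the replicate block ± SE (black; none for CA12, which did not pass the filter). ADM has 4 nearly equal points, NDRG1 has 2 points near 0 and 2 near -1.5, and VEGFA lies above 0 at replicates 1, 3 and 4.

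Of the 9 genes that passed the filter, CA9, ADM and EGLN3 had all treated libraries below all controls, which 2.6% of all genes tested had, and none had all above, which 2.42% had. The treated library was lower at all 4 numbers for 5 genes (these 3, P4HA1 and BNIP3), against 17.1% of all genes tested, and higher at all 4 for CA12 among the 10, against 16.9%. The rule chose the genes from this contrast, so nothing follows from these counts.

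Spread within the groups was smaller after glucose oxidase for 8 of these 9 genes and larger for CA9. The share of all genes tested with a smaller spread was not computed, so nothing follows from this count. The SD of log2 CPM was 1.05 in controls and 0.18 in treated libraries for NDRG1, 1.09 and 0.37 for EGLN3, and 0.40 and 0.12 for KDM3A. It was 1.52 and 0.67 for VEGFA and 0.25 and 0.72 for CA9. The mean difference between replicates 3 and 4 and replicates 1 and 2 was 1.79 log2 units in controls and 0.22 in treated libraries for NDRG1, and -2.62 and -1.15 for VEGFA. Over all genes tested the median size of that difference was 0.54 in controls and 0.42 in treated libraries.

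Levels can be set against each other per length. In the deposited FPKM values, which divide by the summed length of all annotated exons, P4HA1 was highest in controls at 42.9 ± 32.0, followed by BNIP3 at 25.7 ± 15.9 (SD, n = 4). ADM followed at 6.47 ± 1.05, VEGFA at 4.41 ± 3.66, KDM3A at 3.68 ± 1.07, ANKRD37 at 3.67 ± 2.51 and NDRG1 at 3.13 ± 2.04 FPKM. CA9 at 1.22 ± 0.17, EGLN3 at 0.532 ± 0.363 and CA12 at 0.0382 ± 0.0156 FPKM were the lowest. In this order the mean ± SD ranges of neighbours overlapped from P4HA1 to BNIP3 and from ADM through to CA9, and did not overlap between BNIP3 and ADM, CA9 and EGLN3, and EGLN3 and CA12.

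In treated libraries VEGFA, at 5.86 ± 2.52 FPKM, stood before ADM at 3.82 ± 0.47 FPKM, with overlapping ranges and VEGFA above ADM in 2 of 4 libraries. The other 8 genes kept their order, from P4HA1 at 19.3 ± 9.03 to CA12 at 0.0558 ± 0.0341 FPKM. There the mean ± SD ranges of neighbours did not overlap between BNIP3 and VEGFA, KDM3A and ANKRD37, NDRG1 and CA9, and EGLN3 and CA12. Library by library, however, BNIP3 was above VEGFA and EGLN3 above CA12 in only 3 of 4 treated libraries. P4HA1 was above BNIP3 in all 4 libraries of each group, although their mean ± SD ranges overlapped.

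Likeness to the 10 genes was measured among 10874 other protein-coding genes averaging 5 CPM or more, as the root mean square difference of log2 CPM over the 8 libraries after each gene's own mean was subtracted. The genes nearest to VEGFA were TRIB3, a pseudokinase (difference 0.12 log2 units), SLC1A4 and SLC1A5, neutral amino acid transporters (both 0.14), SESN2, a sestrin (0.15), and KCTD15 (0.15), against a median of 1.14 over all candidates. The CPM of TRIB3 was 260.0, 329.1, 43.2 and 46.8 across controls 1 to 4 and 371.2, 320.6, 149.6 and 156.9 across treated libraries 1 to 4. Like VEGFA it was lowest in controls 3 and 4, which follows from its choice by likeness.

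The mean profile of the other 8 genes that passed was nearest to CDKN2C, an inhibitor of cyclin-dependent kinases (0.14 log2 units), MXD3, a transcription factor of the MAX network (0.16), MATN2, a matrix protein (0.17), TENT5B (0.18) and MEST (0.18), against a median of 0.70. The CPM of CDKN2C was 18.7, 17.1, 39.9 and 31.5 across controls and 11.8, 9.56, 15.6 and 19.8 across treated libraries. It too was highest in controls 3 and 4, again by the choice for likeness. None of these 10 nearest genes is in the hypoxia lists used here, and the measure rests on 8 libraries that share the division of replicates. The mean profile does not describe each gene in it. Controls 3 and 4 minus controls 1 and 2 was -0.37 log2 units for CA9, 0.07 for ADM and 0.67 for KDM3A. It ran from 1.45 for BNIP3 to 2.03 for P4HA1 among NDRG1, EGLN3, ANKRD37 and these 2.

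**Figure D3:**
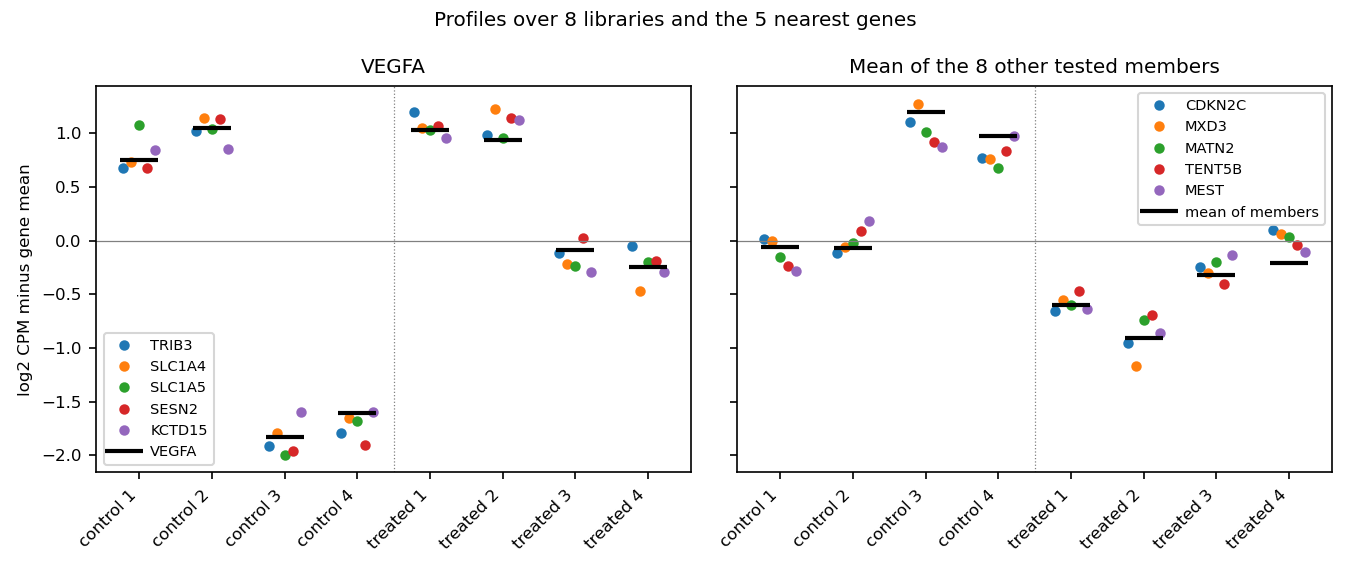
Log2 CPM minus the gene's own mean in each of 8 libraries, for VEGFA (left, black bars) and for the mean of the 8 other genes that passed the filter (right, black bars), with the 5 nearest genes as coloured points. VEGFA lies at -1.83 and -1.61 in controls 3 and 4, where the mean of the others lies at 1.19 and 0.97. The mean hides differences among the 8: for CA9 controls 3 and 4 lay below controls 1 and 2.

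The remaining results concern hypoxia pathway genes outside the 10, in 5 lists of 100 genes, of which 92 were tested. These lists too were chosen with earlier results of these data known, so no conclusion about a list is drawn from its counts. In edgeR with no block 0 of 17413 genes passed an adjusted p of 0.05 (0% higher and 0% lower), while 7.37% had an unadjusted p below 0.05 and DESeq2 with no block called 38 higher and 50 lower. With the replicate block edgeR called 7.51% of all genes higher and 6.97% lower (14.5% in all), and with the block on total counts the split was 1675 higher and 535 lower. A further fit, called the set fit, has a single term that separates replicates 1 and 2 from 3 and 4 where the block has one per number. It called 3.72% higher and 3.07% lower (6.79% in all). DESeq2 with the block called 8.03% higher and 9.51% lower of the 15049 genes to which it gave an adjusted p. "Rose" and "fell" below refer to the fit with the block, and no gene of the 5 lists passed in edgeR with the group alone.

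Of 30 other HIF targets outside glycolysis 10 fell, 1 rose and 19 did not pass, with a median log2 change of -0.24 against -0.01 over all genes. On total counts 9 were lower and 5 higher. LOXL2, a lysyl oxidase of the matrix, fell from 80.7 ± 28.0 to 42.0 ± 15.7 CPM, a log2 change of -0.95 (SE 0.14, edgeR adjusted p = 7.06e-05), and its differences at the 4 numbers ran from -1.14 to -0.83. SPAG4 fell from 17.6 ± 1.91 to 9.28 ± 0.71 CPM, a log2 change of -0.92 (edgeR adjusted p = 0.000361), with all treated libraries below all controls. FAM162A (log2 change -0.77) and STC1, the glycoprotein hormone stanniocalcin 1 (-1.18), also fell. VLDLR, a lipoprotein receptor, rose by a log2 change of 0.88. Like VEGFA it was low in controls 3 and 4, and its differences were 0.11, 0.44, 1.97 and 1.90. In the set fit 9 of these genes were lower and 0 higher, and VLDLR had an edgeR adjusted p of 0.0525. DESeq2 with the block added BHLHE40 as higher.

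Controls 3 and 4 were both at least 2-fold above controls 1 and 2 for 8 of these 30 genes (ANGPTL4, BNIP3L, CCNG2, FAM162A, INSIG2, PLOD2, PPP1R3C and STC1), and at least 2-fold below for DDIT4 and VLDLR. The background shares are 4.86% and 6.28% as above. The median log2 difference between treated and control was -0.13 and -0.02 at replicates 1 and 2, and -0.65 and -0.35 at replicates 3 and 4.

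Of 22 glycolytic HIF targets 4 fell and 0 rose, with a median log2 change of -0.14. Those that fell were TPI1, triose phosphate isomerase (744.5 ± 359.7 to 398.3 ± 173.9 CPM, a log2 change of -0.88 with SE 0.16 and edgeR adjusted p = 0.000797), PGK1 (-0.63), LDHA, lactate dehydrogenase A (-0.65), and PKM, pyruvate kinase (-0.53). PKM had all treated libraries below all controls. By replicate number the log2 differences were -0.09, -0.38, -1.23 and -0.84 for PGK1 and -0.30, -0.20, -1.18 and -0.91 for LDHA. For PKM they were larger at replicates 1 and 2 (-0.87, -0.70, -0.32 and -0.24), and for TPI1 they were -0.93, -0.83, -1.13 and -0.64. Controls 3 and 4 were both at least 2-fold above controls 1 and 2 for ENO1, LDHA, PGAM1 and PGK1, against 4.86% of all genes tested. PGK1, LDHA and PKM lost their calls in the set fit (edgeR adjusted p = 0.0617, 0.0667 and 0.0903), which left 1 of the 22 lower. DESeq2 with the block added ENO1 as lower.

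Genes that control HIF moved both ways: of 17 tested, 4 rose, 3 fell and 10 did not pass, with a median log2 change of 0.10 (5 higher and 2 lower on total counts). HIF1A itself was at 145.1 ± 26.9 CPM without and 189.7 ± 18.9 CPM with treatment (log2 change 0.40, SE 0.15, edgeR adjusted p = 0.0672), higher at all 4 numbers. It did not pass in edgeR with the block and did in DESeq2 with the block. EPAS1, which encodes HIF-2 alpha, rose from 55.9 ± 25.6 to 75.2 ± 27.9 CPM, a log2 change of 0.46 (SE 0.14, edgeR adjusted p = 0.0315). The coactivators EP300 (log2 change 0.79) and CREBBP (0.77) and the ubiquitin ligase SIAH2 (0.42) rose. RBX1 (-0.81) and ELOB (-0.59), subunits of the VHL ubiquitin ligase, and CITED2 (-0.54), which competes with HIF for these coactivators, fell.

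The partner ARNT (log2 change 0.33, edgeR adjusted p = 0.149), VHL (0.10, adjusted p = 0.695) and the asparagine hydroxylase HIF1AN (0.10, adjusted p = 0.697) did not pass. The prolyl hydroxylases EGLN1, at 111.9 ± 29.2 and 87.1 ± 23.3 CPM (log2 change -0.36, edgeR adjusted p = 0.0731), and EGLN2 (-0.29, adjusted p = 0.404) did not pass either. EGLN1 was lower at all 4 numbers and passed in DESeq2 with the block, which called 5 of the 17 higher and 4 lower. In the set fit 1 of the 17 (CREBBP) was higher and 2 (RBX1 and CITED2) were lower, and EPAS1 had an edgeR adjusted p of 0.185.

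**Figure D4:**
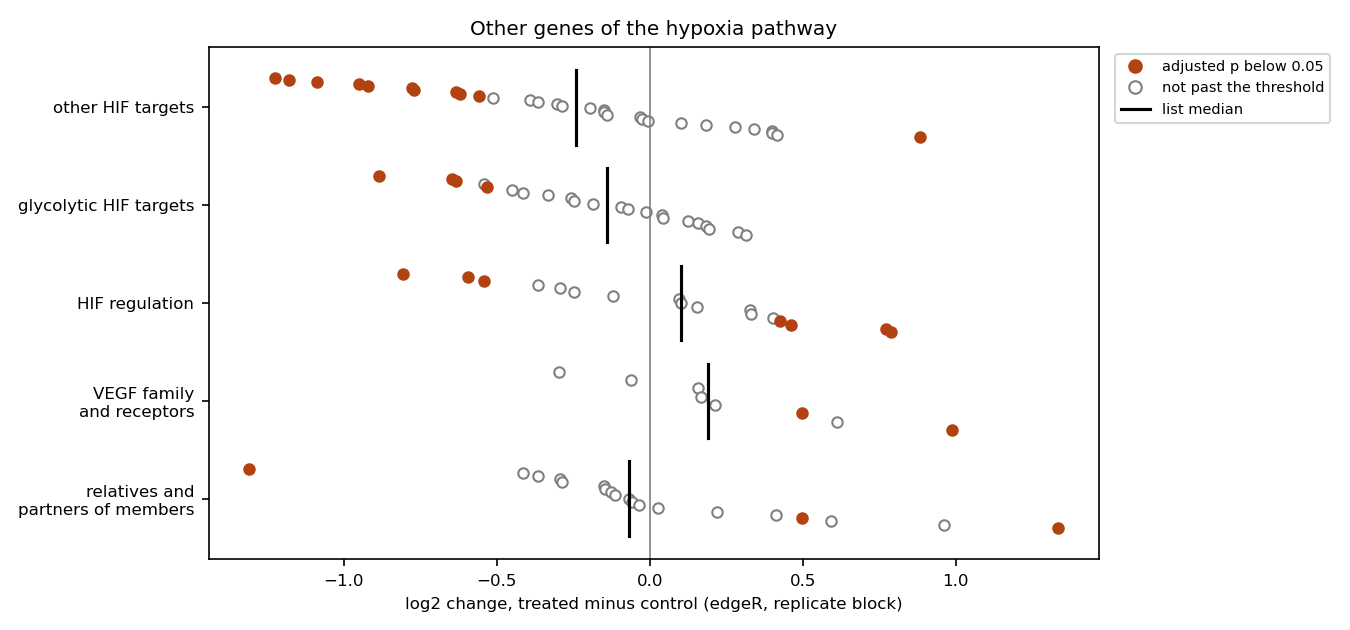
Log2 change, treated minus control, from edgeR with the replicate block for hypoxia pathway genes outside the 10, by list; filled points passed an adjusted p of 0.05 over all genes, open points did not, and black bars are list medians. Of 11 filled points among the other HIF targets 10 lie below 0, as do all 4 among the glycolytic targets.

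In the VEGF family and its receptors 2 of 8 tested genes rose, 0 fell and 6 did not pass, with a median log2 change of 0.19. NRP2, a co-receptor, rose from 2.43 ± 0.57 to 5.19 ± 2.93 CPM, a log2 change of 0.99 (SE 0.26, edgeR adjusted p = 0.0107), though it was not higher at replicate 4 (log2 difference -0.08). VEGFC, a growth factor of lymphatic endothelium, rose by a log2 change of 0.50 (edgeR adjusted p = 0.0409), a call lost in DESeq2 with the block and in the set fit (edgeR adjusted p = 0.0886). VEGFB was at 15.6 ± 1.203 and 15.0 ± 2.46 CPM (edgeR adjusted p = 0.837), and the receptor genes FLT1 and KDR were below 1 CPM in both group means.

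Of 19 tested relatives and partners of the 10 genes, 2 rose, 1 fell and 16 did not pass. RAMP1, an accessory subunit of receptors of the calcitonin and adrenomedullin family, fell from 3.21 ± 0.87 to 1.36 ± 0.67 CPM, a log2 change of -1.31 (SE 0.31, edgeR adjusted p = 0.00591), with all treated libraries below all controls. ADM2, a relative of ADM, rose (log2 change 1.34), with differences of -0.13, 0.17, 3.96 and 3.05, a call lost in DESeq2 with the block. KDM3B, a relative of KDM3A, rose by a log2 change of 0.50. The calls of ADM2 and KDM3B were lost in the set fit (edgeR adjusted p = 0.0678 and 0.121). P4HA2, another alpha subunit of the collagen hydroxylase (log2 change -0.15, edgeR adjusted p = 0.515), its partner P4HB (0.03, adjusted p = 0.926), and BNIP3L, the relative of BNIP3 (-0.29, adjusted p = 0.289), did not pass.

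In the authors' deposited table the log2 change was -2.20 for CA9, -1.94 for EGLN3, -0.76 for ADM and 0.41 for VEGFA.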

How the data were processed

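RNA of 8 SV-HUC1 cultures was sequenced by the authors. Per the submitters' processing notes the build was GRCh38.p13, and the tools named are DESeq2 1.20.0, featureCounts 1.5.0-p3 and HISAT2 2.0.5. Strand setting and read filters are not given in the sources used here. The deposited table of counts gives raw whole numbers for each gene. FPKM values, also deposited, were divided by the authors per kilobase of summed exon length. The authors' deposited comparison table holds size-factor-scaled signal per library and group, a log2 fold change and p-values, of which the log2 fold change was used.

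The test was edgeR 4.0.16 in R 4.3.3 on the deposited counts (quasi-likelihood, TMM, filterByExpr, Benjamini-Hochberg adjusted p below 0.05 over 17413 genes), with the group alone as the main design. DESeq2 1.42.0, a replicate block, a term for replicates 1 and 2 against 3 and 4, other scalings, no filter, a correction for gene length and leaving out each replicate number were alternatives. The number was used as a block by a rule that all 4 same-number correlations of log2 CPM (prior count 2) exceed 0.1, which they did. Libraries on the same side of the division also correlated across numbers, at 0.443 (control 1 with treated 2) to 0.652 (control 3 with treated 4). The rule therefore cannot show that equal numbers mark one experiment. Each library counted as 1 replicate, as labelled. Every pair within a group differed beyond sampling noise (chi-square over its degrees of freedom 10.9 to 260.0), unlike a library sequenced again. This cannot tell separate experiments from parallel cultures of 1 experiment. The fits were tested on simulated data.

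The 10 genes and all lists were chosen with earlier results of these data known. Named outside the 10 were 7 fixed HIF regulators, up to 4 called genes per list and direction with the smallest adjusted p in the blocked fit, and the 5 nearest profiles for each of VEGFA and the mean of the others. Genes named only as relatives, for their 2-fold control difference or for a call gained in DESeq2 were chosen after their values were seen. Gene coordinates equal those of GENCODE release 29 for the 10 genes.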

Additional observations from a re-analysis of the deposited data

Results flagged for a closer look

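CA9 in treated library 4 stood apart from the rest of its group. It was at 0.848 CPM, against 0.362 CPM in the nearest of the other 3 treated libraries, and that gap was 0.878 of the range of the group. Treated 4 was still below the lowest control, at 1.60 CPM. Its value rests on 22 counts, and its exact 95% Poisson interval of 0.532 to 1.28 CPM overlaps the 0.165 to 0.687 CPM of treated 2. Without replicate 4 the CA9 log2 change with no block was -2.69, against -2.19 with all libraries. For normally distributed values the cutoff of this flag is passed by chance in about 1 of 20 groups of this size. In all, 20 groups (10 genes in 2 groups) were examined, and whether values from so few counts are normal was not tested.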

How the results depend on the processing

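With the group alone in the edgeR design 0 genes were called in each direction, also with RLE factors, with total counts, and without each replicate number in turn. Pairing by number, as a replicate block, gave 1308 higher and 1213 lower over all genes and 9 higher and 18 lower among the 92 other pathway genes. Without replicate 1, 2, 3 or 4 in turn the blocked fit gave 917, 864, 593 and 978 higher and 717, 638, 507 and 908 lower over all genes, and 6, 5, 3 and 6 higher and 15, 16, 12 and 10 lower among the pathway genes. The term for replicates 1 and 2 against 3 and 4 gave 648 higher and 534 lower, and 2 higher and 13 lower among the pathway genes. DESeq2 with no block gave 38 higher and 50 lower, and 0 higher and 1 lower among them. DESeq2 with the block gave 1209 higher and 1431 lower, and 9 higher and 20 lower. Total counts with the block gave 1675 higher and 535 lower, and 14 higher and 15 lower, and there the median over all genes was 0.10. With the length trend removed and the block the counts were 1020 higher and 1174 lower, and 7 higher and 19 lower. Keeping every gene with a count, with no block, gave 18 higher and 16 lower, and 0 higher and 0 lower. The cause of these differences was not tested.

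The 10 genes kept the sign of their fitted change under every alternative that could fit them. VEGFA ran from a log2 change of 0.24 (no block, without replicate 3) to 1.13 (block, without replicate 2), and KDM3A from -0.34 (length trend removed) to -0.04 (total counts with the block). ADM was at -0.75 in the main fit and -0.65 on total counts. With the block it was at -0.64 on total counts and -0.67 with the length trend removed. These shifts from the main fit exceeded the SD of 0.06 over its replicate numbers. CA12 passed the filter only without replicate 3 or 4. Depth limits CA9, CA12 and EGLN3, whose lowest libraries had 7, 3 and 18 counts.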
